A study of Camellia sinensis with 9 samples.

Results

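Protochlorophyllide oxidoreductase (POR) is represented in the leaf transcriptome of ‘Anji Baicha’ (Camellia sinensis) by 8 unigenes annotated as PORA, of 179951 unigenes in all. They were chosen by annotation: they are the unigenes that the study lists for PORA in its set of chlorophyll unigenes, and unigene131037 is listed for PORB as well. ‘Anji Baicha’ is a tea cultivar whose new shoots are yellow-green or white in the cool early spring and turn green as it warms. Plants were 4 years old, and leaves were taken at the yellow-green (YG), albescent or white (W) and re-greening (G) stages, each from 3 plants, which gave 9 RNA-seq libraries. The YG leaves were the first leaves of the shoot in early April, the W leaves were the second or the third leaves in mid-April, and the G leaves were the fifth or the sixth leaves in early May. Stage, leaf position, collection date and temperature therefore cannot be told apart. All 3 stages were of the same untreated cultivar, and no green-leaved cultivar was included as a control.

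POR reduces protochlorophyllide to chlorophyllide, the step of chlorophyll biosynthesis that needs light in flowering plants. In dark-grown seedlings the enzyme accumulates with its pigment in the prolamellar bodies of etioplasts, and light triggers the reaction and the conversion of the etioplast into a chloroplast. In Arabidopsis thaliana, PORA is the form known from etiolated seedlings, and its transcript declines in the light, whereas PORB is also expressed in green tissue. The substrate is supplied by the magnesium branch, in which the magnesium chelatase (CHLH, CHLD and CHLI), a methyltransferase (CHLM) and the cyclase CRD act in turn. Its product receives the phytol tail from chlorophyll synthase (CHLG), with the tail supplied by geranylgeranyl reductase (CHLP).

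Expression was measured in FPKM, the fragments of a unigene scaled by its length and by the mapped reads of the library, and thus a level corrected for unigene length and library size. Each unigene had 1 FPKM value per stage for the 3 libraries together, and how these were combined is not given. The differences between stages therefore have no replicate check, no p-value was computed, and the number of fragments behind each value is unknown. A change is given as the difference in log2(FPKM + 1) between stages, a scale that understates the change of low values, and 2-fold means a difference of at least 1 on that scale. Plain ratios of FPKM are named as such. The FPKM of a leaf does not show whether fewer cells express a gene or each cell holds less of its RNA. The files do not pair identifiers with names and none of the 8 identifiers matched the reference gene table, so leaf marker genes could not be examined. How reads shared by similar unigenes were divided is not given in the sources used here, and several PORA unigenes may be pieces or near copies of a single gene.

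The sequences of the 8 unigenes were not analysed here, but primer pairs for quantitative RT-PCR were designed by the study for 4 of them. The 8 primers are shown because they are the only sequence of these unigenes used here, and they identify which unigenes were followed by RT-PCR. The set covers the PORA unigenes with the largest ratios between stages, one with an intermediate ratio and the one with the largest share in the G stage. Each is written 5′ to 3′, as the study lists it.
unigene7972 sense: tggaagactgaaagatacaaggaaa
unigene7972 antisense: ccagaataatcacccacatagatga
unigene62053 sense: gaccttgctgtctttgtatgccttg
unigene62053 antisense: gcctacctaggggacatgaggg
unigene1225 sense: ctgcaacaagtaccacatttcctc
unigene1225 antisense: tccttcagtcccaaaagttcatca
unigene8789 sense: acccttggtgatgtacttttggaa
unigene8789 antisense: tgaggagacaggaataacttttgct

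The primers were 22 to 25 bases long. Their GC content ranged from 36.0% in the sense primer of unigene7972 to 63.6% in the antisense primer of unigene62053. Over the 24 pairs of primers from different unigenes, the longest run of bases in common, read on either strand, was 8. None of the primers was thus reused for another PORA unigene. The other 4 members, unigene57504, unigene131037, unigene38214 and unigene2533, had no primers in the list.

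Added up over the 8 PORA unigenes, FPKM stood at 128 (YG), 85.7 (W) and 31.9 (G). The sum was thus highest in the yellow-green first leaves and 4.01 times lower, as a ratio of FPKM, in the re-greened leaves. Between YG and W the ratio was 1.49, and between W and G it was 2.69, so the later step was the larger one. Of the FPKM of all unigenes, the PORA unigenes held 0.0334% (YG), 0.0245% (W) and 0.0086% (G).

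The members did not behave alike. The FPKM values fell into 4 patterns across the stages, and the grouping was made after the values were seen. In unigene7972 and unigene62053 the level was the highest of the family in YG and under 2 FPKM in G. In unigene57504, unigene1225 and unigene38214 it was also lower at each later stage, by smaller ratios. The level of unigene131037 was lower in W and G than in YG, and in unigene8789 and unigene2533 the highest stage was 1.20 and 1.495 times the lowest.

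**Figure D1:**
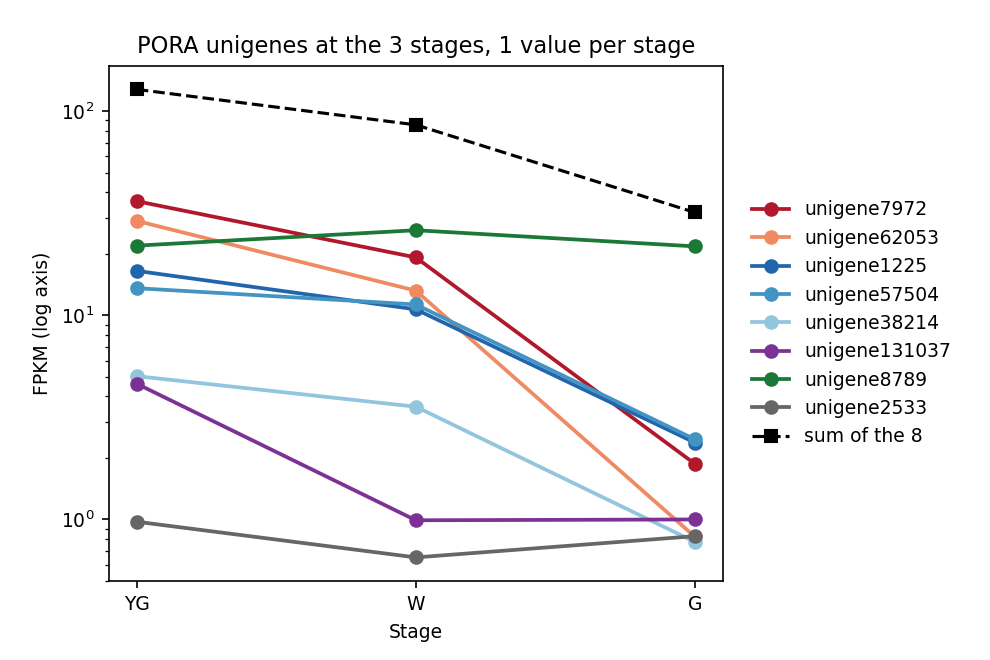
FPKM of each of the 8 PORA unigenes (coloured points and lines) and of their sum (black squares, dashed) at YG, W and G. The vertical axis is a log axis, and there are no error bars because each stage has 1 value. The line of unigene8789 stays between 21.7 and 26.1, whereas that of unigene62053 runs from 29.0 to 0.822.

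At the YG stage unigene7972 had an FPKM of 36.2, the highest of the family. Its level was 19.2 in W and 1.87 in G, where it ranked 4 of the 8. The YG to W step gave a log2 change of -0.88 and the W to G step one of -2.81, which sum to -3.70. As a ratio of FPKM, YG was 19.3 times G. The comparison was with the 78868 unigenes that reached an FPKM of 1 at any stage. Of these, 131 changed as much or more in this direction between YG and G, this one included, or 0.166%. Their upper quartile in YG was 2.65 FPKM, too low for a fall of this size on the log2(FPKM + 1) scale. The small share thus in part reflects the high YG level of unigene7972.

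The values of unigene62053 were 29.0 (YG), 13.2 (W) and 0.822 (G). This unigene showed the widest span of the family, its YG value being 35.2 times its G value. On the log2 scale it changed by -1.08 at the YG to W step, by -2.96 at the W to G step and by -4.04 over both. Of the 78868 unigenes, 79 changed as much or more in this direction between YG and G, this one included, with the same limit. Because its G value lies below 1, the added 1 compresses the change, which was -4.98 with 0.1 added in its place.

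On the log2(FPKM + 1) scale unigene7972 and unigene62053 had the closest stage profiles of the family. With each profile centred on the mean of the 3 stages, their distance was 0.24, the smallest among the 28 pairs of members. This scale compresses low values such as those in G. With 0.1 added in place of 1, the YG to G changes were -4.20 (unigene7972) and -4.98 (unigene62053). The FPKM of unigene7972 was 1.25 times that of unigene62053 in YG, 1.45 times in W and 2.27 times in G, so their plain ratio was not constant. The ratio of unigene38214 to unigene1225 moved less, at 0.305 (YG), 0.333 (W) and 0.326 (G), although the distance of that pair was 0.44. The longest run of bases that the primers of unigene7972 and unigene62053 had in common was 6.

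For unigene1225 the YG value was 16.5, the W value 10.7 and the G value 2.38 FPKM. The first step was a log2 change of -0.58 and the second one of -1.79, and YG was 6.93 times G. For unigene57504 the corresponding values were 13.6, 11.3 and 2.47 FPKM. Its YG and W values were close, with a log2 change of -0.25, and most of the difference lay between W and G, at -1.83. The level of unigene38214 was lower than these at each stage, at 5.03 (YG), 3.56 (W) and 0.776 (G) FPKM. Its log2 changes at the 2 steps were -0.40 and -1.36.

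The proportions among these unigenes moved less than their levels, and most of the movement lay between YG and W. The FPKM of unigene57504 was 0.823 times that of unigene1225 in YG, 1.06 times in W and 1.04 times in G, so that their order turned between YG and W. The FPKM of unigene38214 was 0.305 times that of unigene1225 in YG, 0.333 times in W and 0.326 times in G. It was 0.371 times that of unigene57504 in YG, 0.316 times in W and 0.314 times in G. In each of these 3 unigenes the G value was between 0.218 and 0.223 times the W value. In unigene7972 it was 0.0975 times and in unigene62053 0.0623 times the W value. The spread between plants is not known, so whether the ratios of the 2 sets differ beyond it was not tested.

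The unigene listed for both PORA and PORB, unigene131037, had 4.62 FPKM in YG and about the same low level afterwards, 0.989 in W and 0.998 in G. Its difference lay wholly between YG and W, where the log2 change was -1.50, the lowest of the family at that step. At the W to G step its log2 change was 0.01, at values under 1 and with a sign that turned under upper-quartile and median-ratio scaling. In this it differed from the 5 unigenes above, which all changed more from W to G than from YG to W.

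The most level member was unigene8789, with 21.9 (YG), 26.1 (W) and 21.7 (G) FPKM. Its highest value was 1.20 times its lowest, the smallest such ratio in the family, and the log2 changes at the 2 steps were 0.24 and -0.25. Its YG and G values were nearly equal, at a log2 change of -0.01. It ranked 3 of the 8 in YG and was the most abundant PORA unigene in W and G. Of the 78868 unigenes, 97.9% (YG), 98.4% (W) and 97.5% (G) had a lower level.

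The weakest member in YG and W was unigene2533, which had 0.973 (YG), 0.651 (W) and 0.827 (G) FPKM. With no value of at least 1 it did not pass the minimum set for the counts over all unigenes, and the other 7 members did. Its W value was the lowest of the 3 stages, with log2 changes of -0.26 and 0.15 at the 2 steps.

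**Figure D2:**
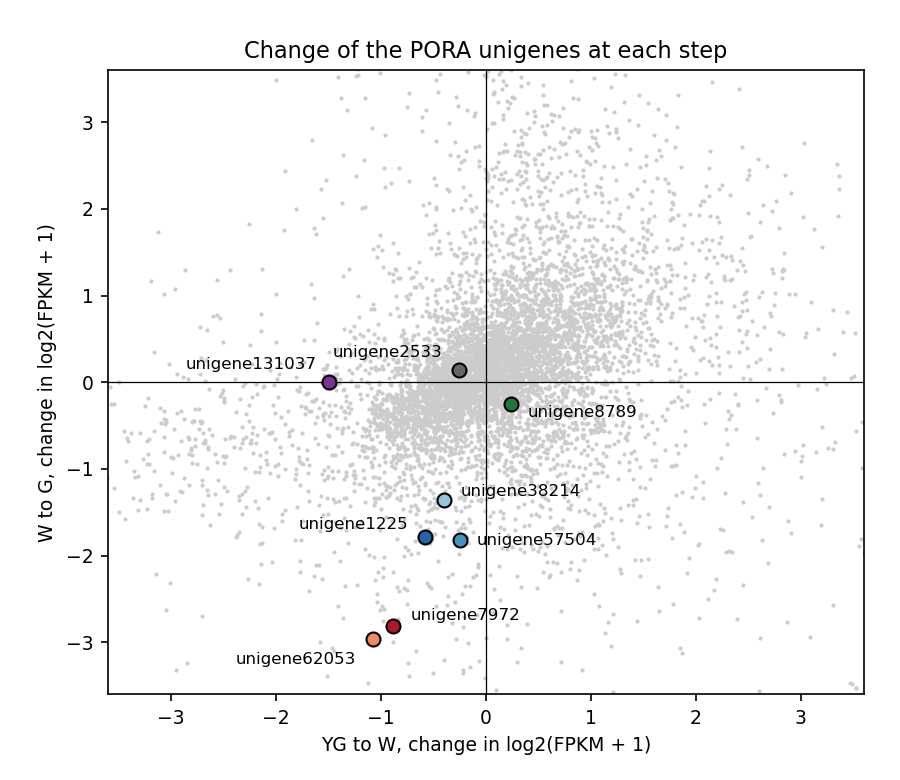
Change in log2(FPKM + 1) from YG to W (horizontal axis) and from W to G (vertical axis) for the 8 PORA unigenes (coloured, labelled) and for the 7076 unigenes that reached an FPKM of 10 at any stage (grey, 167 of them outside the axes). The 5 unigenes that were lower at both steps lie at the lower left, farther down than left, unigene131037 lies to the left near the horizontal line, and unigene8789 and unigene2533 lie near the centre.

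From YG to W, 2 of the 8 members, unigene131037 and unigene62053, were at least 2-fold lower and none was at least 2-fold higher. Both are among the 7 members that passed the minimum FPKM of 1. Among the 78868 unigenes that passed it 9.11% were at least 2-fold lower and 11.4% at least 2-fold higher in W than in YG. The 2 members thus rest on a small count, and without unigene131037 it was 1. The median log2 change of the 8 members was -0.49, beside 0.00 over the 78868 unigenes. The value of unigene7972, -0.88, lay just short of the threshold.

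From W to G, 5 of the 8 members, or 5 of the 7 that passed the minimum, were at least 2-fold lower. None was at least 2-fold higher. Of the 78868 unigenes that passed it 11.8% were at least 2-fold lower and 10.2% higher. The 5 were unigene7972, unigene62053, unigene57504, unigene1225 and unigene38214. The median log2 change of the 8 members was -1.58, beside 0.00 over the 78868 unigenes. The members that were not at least 2-fold lower were unigene8789, unigene131037 and unigene2533.

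From YG to G, 6 of the 8 members, or 6 of the 7 that passed the minimum, were at least 2-fold lower and none higher, beside 14.2% lower and 15.1% higher among the 78868 unigenes. The median log2 change of the 8 members was -1.92, and that of the 78868 unigenes was 0.00. Among the 7076 unigenes that reached an FPKM of 10 at any stage, 17.7% were at least 2-fold lower. The members that reached an FPKM of 10 were unigene8789 and 4 others, and these 4 were at least 2-fold lower. The 3 comparisons share stages, so their counts are not independent of each other.

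The shape of the change was also counted over all unigenes. The pattern counted was lower values at both steps, at least 2-fold lower over both, with the larger difference from W to G. It was found in 5 of the 8 members, or 5 of the 7 that passed the minimum, and in 4.05% of the 78868 unigenes. Among the 7076 unigenes that reached an FPKM of 10, which do not include unigene38214, the share was 5.70%. These 5 members were described above by the same values, so the count is a description and not a test.

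The composition of the family changed with its level. Of the summed FPKM in YG, unigene7972 held 28.3%, unigene62053 22.7%, unigene8789 17.2%, unigene1225 12.9% and unigene57504 10.6%. The remaining 3 members held 3.94% (unigene38214), 3.61% (unigene131037) and 0.762% (unigene2533). No unigene held a majority, and the effective number of unigenes, the inverse of the summed squared shares, was 5.21.

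In W the share of unigene8789 was 30.5%, the highest of the family, followed by unigene7972 with 22.4% and unigene62053 with 15.4%. The shares of unigene57504, 13.2%, and unigene1225, 12.5%, were within 2.56 percentage points of those in YG. The effective number was 4.96, little different from YG.

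In G unigene8789 alone held 68.2% of the sum, 51.0 percentage points more than in YG. The next share was 7.74% for unigene57504, then 7.46% for unigene1225 and 5.87% for unigene7972. Each of the 4 other members held between 2.43% and 3.13%, and unigene62053 was seventh of the 8 with 2.58%. These 4 members were at 0.776 to 0.998 FPKM in G, and with 1 value per stage their order is not resolved. The effective number of unigenes was 2.07. The share of unigene8789 was larger because the other members were lower, since its own FPKM was 21.9 in YG and 21.7 in G.

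**Figure D3:**
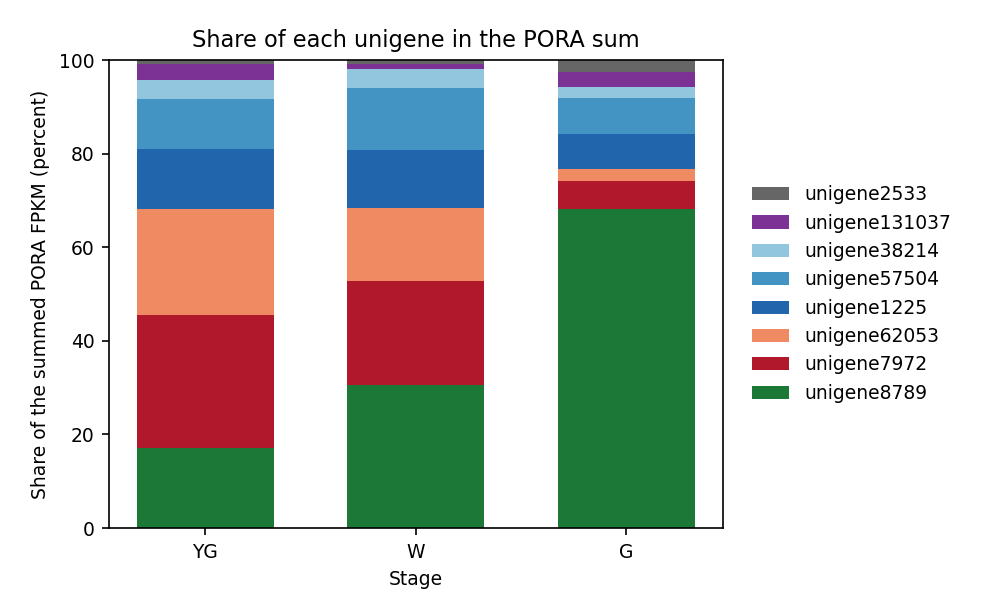
Share of each PORA unigene in the summed PORA FPKM (vertical axis, percent) at the YG, W and G stages, as stacked bars that each add up to 100%. The share of unigene8789 (green, lowest segment) is 17.2%, 30.5% and 68.2%, and that of unigene7972 and unigene62053 together is 51.0%, 37.8% and 8.45%.

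The difference of the sum between stages came mainly from a pair of members. Of the 95.9 FPKM by which the sum was lower in G than in YG, unigene7972 accounted for 35.8% and unigene62053 for 29.4%. A further 14.7% belonged to unigene1225 and 11.6% to unigene57504. The contribution of unigene8789 was 0.181%. From YG to W the sum was lower by 42.1 FPKM, of which unigene7972 and unigene62053 made up 77.9%. Over this step unigene8789 was higher by 4.17 FPKM. From W to G the sum was lower by 53.8 FPKM, of which unigene7972 and unigene62053 made up 55.2%. At that step unigene57504 accounted for 16.4% and unigene1225 for 15.45%.

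Without unigene8789 the other 7 members summed to 106 (YG), 59.6 (W) and 10.1 (G), and YG was 10.4 times G in place of 4.01 times. Without unigene7972 the ratio was 3.05, and without unigene62053 it was 3.18. Leaving out any of the remaining members gave ratios between 3.77 and 4.08. The sum was thus more than 2-fold lower in G than in YG whichever single unigene was left out.

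The neighbouring steps of the pathway were compared to place PORA among them. The list holds 23 enzymes, each taken as the summed FPKM of its unigenes. Among them PORA had the highest sum in YG, the fifth highest in W and the eleventh highest in G. PORA also had the most unigenes, 8 against 2 for CRD. Its sum would overstate its level if several of them were pieces of a single gene. Its largest single value in YG was 36.2 FPKM, in unigene7972, below the 77.5 of the CRD unigene12598. The cyclase CRD, which makes the substrate of POR, summed to 83.1 (YG), 135 (W) and 277 (G). The PORA sum was therefore 1.54 times the CRD sum in YG, 0.633 times in W and 0.115 times in G. Both CRD unigenes showed this increase. In the order YG, W and G, unigene12598 had 77.5, 127 and 258 FPKM and unigene26832 had 5.58, 8.65 and 18.8. Over both steps their log2 changes were 1.72 and 1.59.

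The enzyme sums did not share a direction. After HEMF, whose single unigene had 0.317 in YG and was listed at 0 in G, the PORA sum had the lowest ratio of G to YG of the list, 0.250. The next lowest was hydroxymethylbilane synthase (HEMC), an early enzyme of the tetrapyrrole pathway, with 0.516. The highest ratios were 6.62 for chlorophyllide a oxygenase (CAO), which forms chlorophyll b, 4.25 for CHLH and 3.33 for CRD.

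On the product side of POR, the CHLG unigenes summed to 14.4 (YG), 15.8 (W) and 10.9 (G) FPKM. Only unigene4795 of the 3 was past 2-fold between YG and G, with 6.18 and 2.503 FPKM and a log2 change of -1.04. Over the same interval the log2 changes of unigene16139 and unigene131775 were 0.00 and 0.11. For CHLP the sum was 69.3, 88.0 and 77.6, and it lay mostly in unigene26550, whose log2 change was 0.14 between YG and G. In unigene1182 the change was 0.56, at an FPKM of 1.92 in YG and 3.29 in G.

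**Figure D4:**
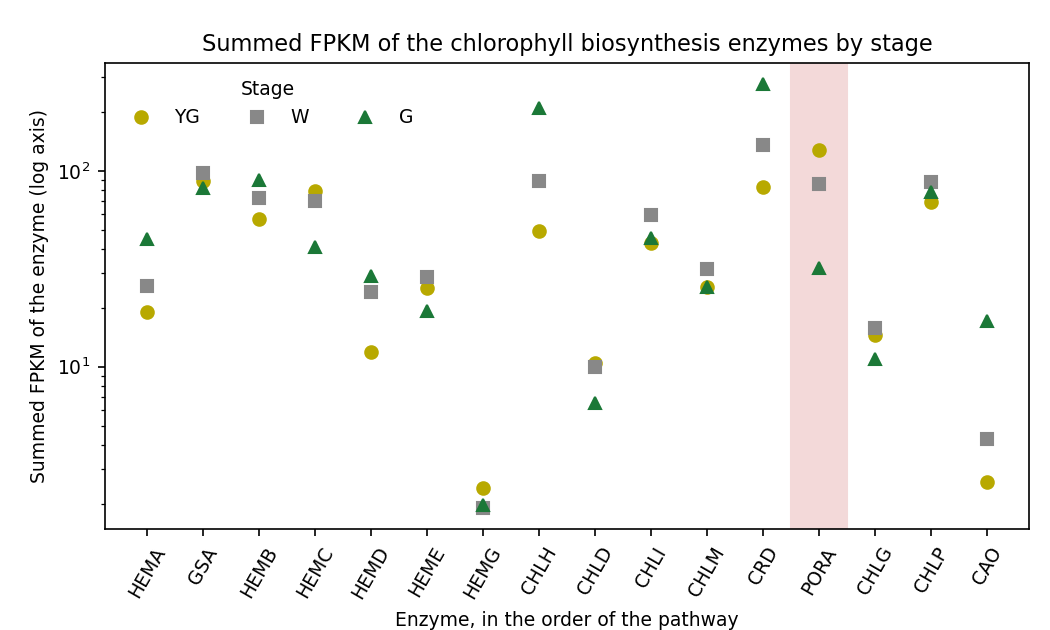
Summed FPKM of the unigenes of each chlorophyll biosynthesis enzyme (vertical log axis) at the YG (circles), W (squares) and G (triangles) stages, in the order of the pathway from left to right, without HEMF, which is listed at 0 in G. PORA is shaded: its YG value of 128 is the highest of its 3, whereas for CRD to its left the G value of 277 is the highest.

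The lower unigenes were then counted by groups of steps. Of the 62 unigenes of the chlorophyll list that reached an FPKM of 1 at any stage, 10 were lower in G than in YG by at least 2-fold, and 6 of these 10 were PORA unigenes. The 10 are 16.1% of the list, close to the 14.2% among the 78868 unigenes. The other 4 were the HEMB unigene71483, the CHLG unigene4795 and the CLH unigenes unigene56286 and unigene58581. HEMB is an early enzyme of the pathway and CLH is chlorophyllase, which removes the phytol tail. Among the 55 unigenes of the list other than PORA, 4 were at least 2-fold lower, which is 7.27%, and 11 at least 2-fold higher, with a median log2 change of 0.11. The corresponding share of higher unigenes among the 78868 was 15.1%.

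In the magnesium branch none of the 7 unigenes tested was lower in G by at least 2-fold and 3 were at least 2-fold higher, CHLH unigene24228 and both CRD unigenes. At the same 2-fold threshold, 1 of the 25 early tetrapyrrole unigenes was lower and 5 were higher. Of the 7 after POR, 1 was lower and 2 were higher. Among the 16 unigenes for chlorophyll turnover 2 were lower and 1 was higher. These groups are small, and against the 14.2% lower and 15.1% higher among the 78868 unigenes the 1 of 7 after POR, 14.3%, and the 2 of 16 for turnover, 12.5%, lie near the share of lower unigenes. The 1 of 25 early unigenes lies below it, and the 5 of 25 above the share of higher unigenes. With 1 value per stage, whether the groups differ was not tested.

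The unigenes most like the PORA sum were sought among 120 other unigenes of the carotenoid, chlorophyll and theanine lists, by the distance between centred profiles of log2(FPKM + 1) over the 3 stages. The nearest was the glutamine synthetase (GS) unigene6286, also listed for theanine synthase, at a distance of 0.31. It had 40.6 (YG), 20.0 (W) and 7.55 (G) FPKM. The CLH unigene58581 followed at 0.34, with an FPKM of 2.31, 2.05 and 0.0999. Next were unigene132868 at 0.55 and unigene81677 at 0.58, both listed for the alanine decarboxylase AIDA, and the CLH unigene56286 at 0.56. The likeness covers only 3 values per unigene, and of the 7071 other unigenes that reached an FPKM of 10 at any stage, 329 were as close or closer than the last of these.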

How the data were processed

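Leaves of ‘Anji Baicha’ at the YG, W and G stages gave 3 libraries per stage, grouped by their labels. The authors filtered the reads, assembled unigenes de novo with Trinity and further tools, and computed FPKM with Cufflinks. The submitters' processing notes name Cufflinks 2.1.1 and the paper's methods an earlier version. Each deposited FPKM column gives a single value per unigene for its stage. How the libraries of a stage were combined, the aligner and the treatment of shared reads are not given in the sources used here. Low values were searched for steps that would give the depth, and none was clear, so no intervals were derived.

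The members and lists were chosen with earlier results of these data known. The design planned for a single value per stage, with limma only if libraries had been given separately. Changes were differences of log2(FPKM + 1), with 2-fold as the threshold, over the 78868 unigenes that reached an FPKM of 1 at any stage. No p-value is given. The unigenes named are the 8 PORA members, those of CRD, CHLG and CHLP, and the 5 nearest to the PORA sum by profile. Unigenes named in counts of lower or higher members were picked with their values known. The alternatives were a pseudocount of 0.1, no minimum, a minimum FPKM of 10, upper-quartile scaling (percentile 75), median-ratio scaling, quantile normalization, and sums without each member. The steps were tested on simulated data. Python 3.11.15, pandas 2.3.3, numpy 2.4.6 and matplotlib 3.10.9 were used.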

Additional observations from a re-analysis of the deposited data

How the results depend on the processing

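The changes of the 8 members in the 3 comparisons kept their side of the 2-fold threshold in 96 of 96 alternative values, as did the ratios of the summed FPKM in 33 of 33. Leaving out single unigenes or rescaling gave a log2 ratio of the sum between -3.38 and -1.61 from YG to G, -2.55 and -1.15 from W to G, and -0.83 and -0.45 from YG to W. The count of members at least 2-fold lower from YG to W became 1 without unigene131037 and 1 with a minimum FPKM of 10, where this unigene did not pass. With that minimum the count from W to G became 4, from 5, and the count from YG to G became 4, from 6. Without unigene131037 the count from YG to G became 5. Of the 5 unigenes most like the PORA sum, 3 remained with a pseudocount of 0.1, where unigene58581 and unigene81677 dropped out. All 5 remained when the median member replaced the sum. Upper-quartile scaling and quantile normalization lowered the count of chlorophyll unigenes at least 2-fold higher from W to G to 5, from 8. No paired analysis was possible because the libraries of a stage share 1 value, and for the same reason no library could be left out. Depth and the spread between plants are unknown, which limits all small differences, above all those of unigene2533 and of unigene131037 in W and G.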
